A study of Homo sapiens with 13 samples.

Results

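The epidermal growth factor (EGF) receptor family and its ligands were followed in TE-7, an established human cell line labelled as esophageal epithelium, with and without interleukin-13 (IL-13), a cytokine of type 2 immunity. The members were chosen by gene symbol: the receptors EGFR, ERBB2 and ERBB3, and the ligands AREG, EREG, HBEGF, TGFA, BTC, EGF and NRG1. All 10 are among the 23637 genes of the deposited RNA tables. RNA was sequenced from untreated control cells and from cells given IL-13 at 100 ng/ml, each at 2, 6 and 24 hr, in 6 libraries. H3K4me3, H3K9Ac and H3K27Ac, histone marks of active promoters and enhancers, were profiled by chromatin immunoprecipitation and sequencing (ChIP-seq) at 6 hr in control and treated cells, also in 6 libraries. Each group has 1 library, all groups are the same line grown in serum-containing medium, and whether the libraries are from separate cultures is not stated.

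Ligands of this family are made as membrane-bound precursors, cut free by ADAM proteases, and bind receptor tyrosine kinases that pair with each other and signal through RAS, MAP kinases and PI3 kinase. AREG, EREG, HBEGF, TGFA, BTC and EGF bind EGFR, and some of them also ERBB4, while NRG1 binds ERBB3 and ERBB4. ERBB2 has no known ligand of its own and acts as a partner, and ERBB3 has very weak kinase activity. In stratified epithelia the pathway is known for driving growth, migration and wound repair, and several of its ligands are themselves early-response genes.

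The promoters of AREG, EREG and HBEGF are shown first because these 3 ligands had the widest ranges over the 6 libraries among members that reached 1 RPKM, 9.25-fold for AREG, 7.98-fold for EREG and 14.5-fold for HBEGF. Each sequence is the 250 bases before the RefSeq start on the gene's own strand in GRCh38.p14, a build other than the hg19 of the study's tables. Capitals mark every match to the cyclic AMP response element TGACGTCA, the TATA box TATAAA and the GC box GGGCGG or its reverse complement. The windows are chr4:74444886-74445135 on the plus strand for AREG, chr4:74364895-74365144 on the plus strand for EREG and chr5:140346604-140346853 on the minus strand for HBEGF.
AREG: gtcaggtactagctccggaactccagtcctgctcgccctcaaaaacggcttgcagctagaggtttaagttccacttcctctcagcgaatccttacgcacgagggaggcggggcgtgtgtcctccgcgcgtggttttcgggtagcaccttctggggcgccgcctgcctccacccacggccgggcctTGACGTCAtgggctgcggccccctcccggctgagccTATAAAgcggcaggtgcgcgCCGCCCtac
EREG: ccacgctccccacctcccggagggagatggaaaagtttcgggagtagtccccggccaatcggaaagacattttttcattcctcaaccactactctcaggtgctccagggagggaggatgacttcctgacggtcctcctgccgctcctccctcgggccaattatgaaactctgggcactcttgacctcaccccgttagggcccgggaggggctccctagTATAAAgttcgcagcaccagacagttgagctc
HBEGF: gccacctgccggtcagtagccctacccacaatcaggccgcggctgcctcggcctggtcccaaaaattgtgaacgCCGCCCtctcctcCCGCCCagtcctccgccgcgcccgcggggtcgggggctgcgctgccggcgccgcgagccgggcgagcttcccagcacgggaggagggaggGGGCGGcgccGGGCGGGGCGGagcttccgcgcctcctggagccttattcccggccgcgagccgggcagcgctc

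AREG, the ligand amphiregulin, holds TGACGTCA 65 bases and TATAAA 29 bases before the start, with a GC box at 9 bases. EREG, the ligand epiregulin, holds TATAAA 32 bases before the start and no other match. HBEGF, the heparin-binding EGF-like factor, holds 5 GC boxes, at 176, 163, 73, 63 and 58 bases, of which the last 2 overlap, and neither TGACGTCA nor TATAAA. Among 35116 RefSeq promoter windows of this length, TGACGTCA on either strand was present in 1.65%, TATAAA in 10.7% and the GC box in 42.6%. None of these 3 windows, nor the pair of windows listed for TGFA, holds the AP-1 site TGANTCA (6.57% of all windows), the STAT6 site (5.38%), the STAT site TTCNNNGAA (6.57%) or a CArG box (1.16%). These matches describe letters only, and binding was not measured.

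RNA levels were deposited as RPKM, reads scaled to gene length and sequencing depth, so levels of different genes can be set side by side. EGFR (chromosome 7, 55086725 to 55275031, plus strand, hg19) was the most abundant receptor, at 208, 159 and 195 RPKM in the control at 2, 6 and 24 hr and 199, 134 and 168 RPKM with IL-13. ERBB2 (chromosome 17, 37856254 to 37884915, plus strand) had 10.3, 11.7 and 23.0 RPKM in the controls and 9.95, 10.9 and 18.7 RPKM with IL-13. ERBB3 (chromosome 12, 56473892 to 56497291, plus strand) had 6.22, 6.49 and 21.9 RPKM in the controls and 6.35, 4.94 and 21.0 RPKM with IL-13. EGFR thus made up 92.6% of the summed RPKM of the 3 receptors in the control at 2 hr and 80.9% with IL-13 at 24 hr, the highest and lowest shares among the 6 libraries. The ratio of EGFR to ERBB2 went from 20.2 in the control at 2 hr to 8.50 in the control at 24 hr.

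NRG1 (chromosome 8, 32579351 to 32622558, plus strand), a neuregulin and the only ERBB3 ligand among the members, had 152, 151 and 75.0 RPKM in the controls and 162, 147 and 73.2 RPKM with IL-13. AREG (chromosome 4, 75480629 to 75490485, plus strand) had 174, 35.7 and 18.8 RPKM in the controls and 130, 22.8 and 35.9 RPKM with IL-13. TGFA (chromosome 2, 70674412 to 70781147, minus strand), transforming growth factor alpha, had 43.4, 19.4 and 22.0 RPKM in the controls and 37.9, 17.8 and 17.0 RPKM with IL-13. AREG was second only to EGFR in the control at 2 hr, and NRG1 was the highest ligand in the other 5 libraries. In the IL-13 library at 6 hr NRG1 stood above EGFR.

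HBEGF (chromosome 5, 139712428 to 139726188, minus strand) had 12.7, 1.15 and 6.53 RPKM in the controls and 10.1, 0.877 and 4.33 RPKM with IL-13. EREG (chromosome 4, 75230860 to 75254477, plus strand) had 2.81, 0.672 and 0.526 RPKM in the controls and 3.20, 0.726 and 0.401 RPKM with IL-13. Both ligands were highest at 2 hr in either treatment. BTC, betacellulin (chromosome 4, 75671448 to 75719882, minus strand), lay between 0.0557 and 0.216 RPKM over the 6 libraries. EGF itself (chromosome 4, 110834040 to 110934118, plus strand) did not exceed 0.0281 RPKM and is listed at 0 in 3 libraries. BTC and EGF were therefore under 1 RPKM throughout, and EREG was so at 6 and 24 hr.

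AREG, EREG and BTC lie with the related ligand gene EPGN in 546 kb of chromosome 4. The RNA tables place AREG at 75480629, whereas the peak tables list the same RefSeq record at 75310853, 170 kb away. hg19 carries near-identical copies there, so reads may have been divided between them and the absolute level of AREG is uncertain.

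**Figure D1:**
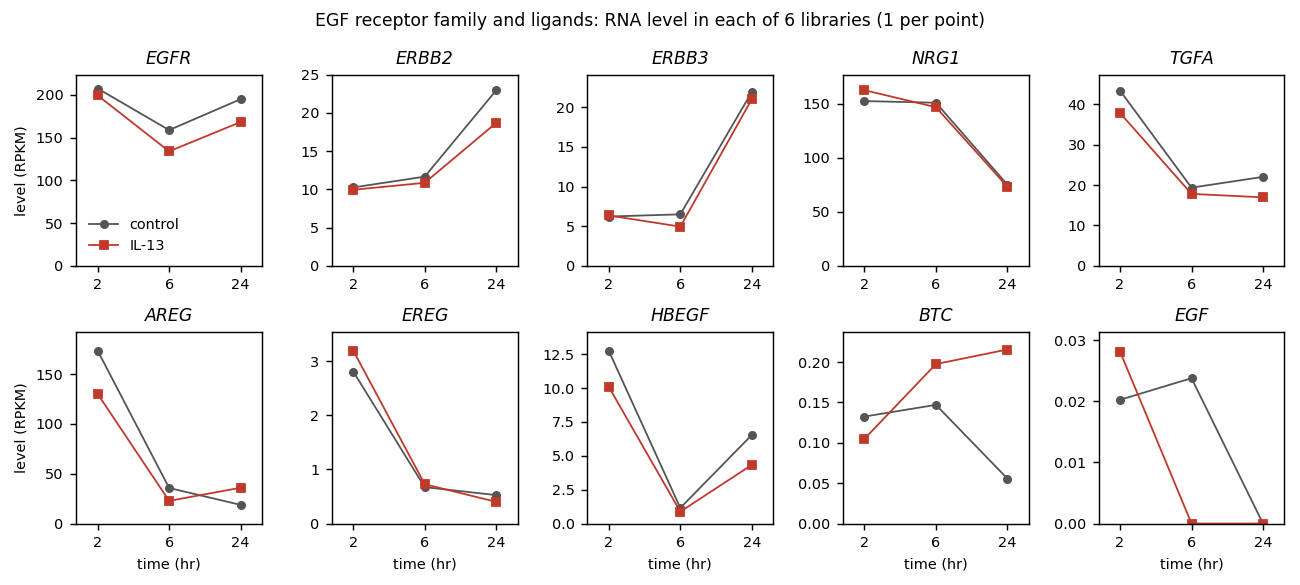
RNA level in RPKM (vertical axes from 0, each gene on its own scale) at 2, 6 and 24 hr for the 10 genes, 1 library per point, in control (grey circles) and IL-13 (red squares). AREG, EREG, HBEGF and TGFA are highest at 2 hr in both treatments, ERBB2 and ERBB3 are highest at 24 hr, and NRG1 is lowest at 24 hr.

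Summed over the 7 ligands, RNA at 2 hr was 385 RPKM in untreated and 344 RPKM in treated cells. The sums were 208 and 189 RPKM at 6 hr, and 123 and 131 RPKM at 24 hr. AREG made up 45.1%, 17.2% and 15.3% of the ligand sum in the controls at the 3 times. NRG1 made up 39.6%, 72.5% and 61.0% in the same libraries. With IL-13 the share of AREG was 37.9%, 12.04% and 27.4% and that of NRG1 47.2%, 77.6% and 55.8%. The ligand pool at 2 hr was thus shared mainly between AREG and NRG1, and at 6 hr NRG1 made up most of it in both treatments.

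The first question was whether IL-13 changed these genes at each time. With 1 library a group no p-value can be had, so a gene was counted when log2(RPKM + 0.1) differed at least 2-fold and the higher library reached 1 RPKM. No member was counted at 2 hr (0 of 8 that reached 1 RPKM), 6 hr (0 of 7) or 24 hr (0 of 7). Over all genes that reached 1 RPKM, 1.0% were counted at 2 hr, 1.07% at 6 hr and 2.16% at 24 hr. For the members, the median ratio at the 3 times was −0.05, −0.25 and −0.21 on the log2 scale, beside 0.00, −0.00 and 0.02 for all genes.

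AREG had the widest range of IL-13 ratios among members that reached 1 RPKM. With IL-13 it was 1.33-fold lower than control at 2 hr and 1.57-fold lower at 6 hr, but 1.92-fold higher at 24 hr, with log2 ratios of −0.41, −0.65 and 0.93. At 1.5-fold AREG was the 1 member counted at 6 hr and at 24 hr, and none was at 2 hr, beside 3.02%, 6.4% and 2.47% of all genes. In the authors' deposited table AREG was the only member with an adjusted p under 0.05, and only at 24 hr, with a log2 ratio of 0.92 and an adjusted p of 0.0312. The authors' deposited table gives an adjusted p under 0.05 to 0.0127% of all 23637 genes at 2 hr, 0.351% at 6 hr and 0.592% at 24 hr. For AREG at 6 hr the authors' deposited table gives a log2 ratio of −0.65, an unadjusted p of 0.0400 and an adjusted p of 1. How those p-values were obtained from 1 library a group is not given in the sources used here.

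HBEGF had lower values with IL-13 at all 3 times, with log2 ratios of −0.33, −0.36 and −0.58, the last a 1.51-fold difference. TGFA had log2 ratios of −0.20, −0.12 and −0.38, and EGFR of −0.06, −0.25 and −0.21. ERBB2 had log2 ratios of −0.04, −0.10 and −0.29. These 4 genes were lower with IL-13 at every time, which makes 4 of the 7 members tested over the times, beside 20.1% of 11953 genes. ERBB3 had log2 ratios of 0.03, −0.39 and −0.06, and NRG1 of 0.09, −0.04 and −0.04, so neither kept 1 direction.

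**Figure D2:**
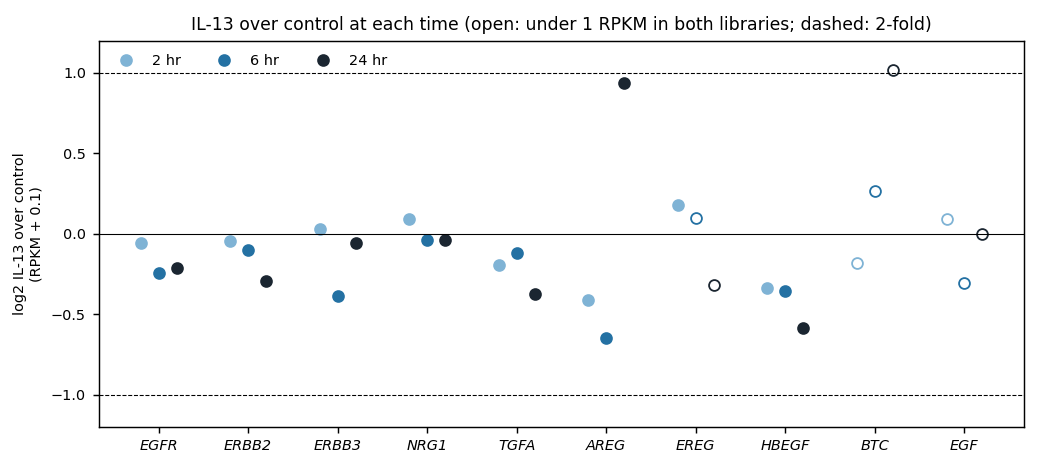
Log2 ratio of IL-13 over control on the log2(RPKM + 0.1) scale for the 10 genes at 2, 6 and 24 hr (light to dark), each point 1 pair of libraries, with dashed lines at 2-fold and open symbols where both libraries are under 1 RPKM. AREG lies at −0.65 at 6 hr and 0.93 at 24 hr, and only BTC, under 1 RPKM, crosses a line.

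A difference common to all times was fitted with limma from time and treatment, using log2(RPKM + 0.1) of all genes with at least 1 RPKM in at least 3 libraries. EREG, BTC and EGF did not reach that level. Of the 7 members tested, 0 passed a Benjamini-Hochberg adjusted p of 0.05, as did 0 of all 11953 genes (0.0%), the smallest adjusted p being 0.114. At an unadjusted p under 0.05, limma picked 2025 genes (16.9%), 3 of them members. They were HBEGF, with −0.42 ± 0.07 (log2, SE) and a limma adjusted p of 0.177, TGFA, with −0.23 ± 0.07 and 0.241, and EGFR, with −0.17 ± 0.06 and 0.272. A fit with an intensity trend called 6 genes and one with a pseudocount of 1 called 7, no member in either. For AREG the shared difference was −0.04 ± 0.34 (limma adjusted p = 0.960), with an error larger than that of any other member tested. Without the 24 hr pair of libraries it was −0.53 (limma adjusted p = 0.110). ERBB2 had −0.15 ± 0.07 (limma adjusted p = 0.366), ERBB3 −0.14 ± 0.10 (0.523) and NRG1 0.01 ± 0.05 (0.968).

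Unlike differences with IL-13, differences between times passed the size rule for some members. From 2 to 6 hr, AREG, EREG, HBEGF and TGFA were lower by the size rule in the controls (4 of 8 members), where 2.36% of all genes were lower and 2.56% passed in either direction. The same 4 genes were lower with IL-13 (4 of 8 members), where 2.9% of all genes were lower and 3.42% passed in either direction. HBEGF differed most, 11.1-fold lower in the controls and 11.5-fold lower with IL-13. AREG was 4.86-fold and 5.72-fold lower, EREG 4.18-fold and 4.40-fold lower, and TGFA 2.24-fold and 2.12-fold lower. The 4 are all ligands of EGFR, and NRG1, the ERBB3 ligand, had log2 differences of −0.01 and −0.15 over the same interval. The median gene had a log2 difference of 0.10 in the controls and 0.09 with IL-13 between these times.

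In the limma fit, with control and IL-13 as the 2 libraries of a time, 4 of 7 members fell from 2 to 6 hr, beside 28.3% of all genes that passed in either direction and 1198 of 11953 that fell. HBEGF fell by 3.37 ± 0.08 (log2, SE; limma adjusted p = 0.00376), AREG by 2.39 ± 0.42 (0.0274), TGFA by 1.12 ± 0.08 (0.00885) and EGFR by 0.48 ± 0.07 (0.0222). When genes above 0 RPKM in any library were all tested, HBEGF alone of these passed, beside 9 higher and 139 lower of 19306 genes. The limma adjusted p was then 0.0554 for TGFA, 0.0974 for AREG and 0.0902 for EGFR. The controls at 2 and 6 hr share 359 identical values above 0, none of them a member's, whereas the other 14 pairs of libraries share 0. The low values of both hold a read set of 15.7 megareads, so one set appears to have entered both controls and their difference would then be understated. The IL-13 ratios at 2 and 6 hr would then rest in part on the same control reads. Their size, and the counts of members taken from them at those times, would be uncertain as well. The limma fit, for IL-13 and for time, treats these controls as separate libraries.

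From 6 to 24 hr the pattern was of another kind. ERBB3 and HBEGF were higher and NRG1 lower by the size rule in both treatments (3 of 7 members in each), beside 22.3% of genes in either direction in the controls and 19.9% with IL-13. Of all genes, 16.2% were higher and 6.09% lower in the controls, and 14.9% and 5.01% with IL-13. ERBB3 was 3.37-fold higher in the controls and 4.25-fold with IL-13, and HBEGF 5.68-fold and 4.93-fold higher. NRG1 was 2.01-fold lower in the controls and 2.00-fold lower with IL-13, at the edge of the rule, and with a pseudocount of 1 its log2 differences of −0.997 and −0.994 no longer passed. ERBB2 was 1.97-fold and 1.72-fold higher, below the rule. At 24 hr ERBB3 was thus close to ERBB2 in RPKM, and the receptor for NRG1 stood higher where NRG1 itself stood lower.

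AREG differed between the treatments over this interval. Its log2 difference was −0.93 in the controls, from 35.7 to 18.8 RPKM, and 0.66 with IL-13, from 22.8 to 35.9 RPKM. TGFA had log2 differences of 0.19 and −0.07, and EGFR of 0.30 and 0.33. HBEGF, although higher than at 6 hr, stayed below its 2 hr level in both treatments.

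In the limma fit, 4 members rose from 6 to 24 hr and 1 fell, 5 of 7, beside 72.7% of all genes that passed, 46.6% that rose and 26.1% that fell. The count of members that passed thus lay near the share of all genes. HBEGF rose by 2.29 ± 0.08 (log2, SE; limma adjusted p = 0.000393), ERBB3 by 1.90 ± 0.12 (0.000618), ERBB2 by 0.87 ± 0.08 (0.00135) and EGFR by 0.31 ± 0.07 (0.0169), and NRG1 fell by 1.00 ± 0.06 (0.000622). The median gene was higher at 24 hr by 0.23 in the controls and 0.21 with IL-13, and with each library centred on its median EGFR had 0.05 and a limma adjusted p of 0.535. Among all genes the fit gave 5570 higher and 3123 lower, and 3748 higher and 4820 lower after centring. From 2 to 6 hr it gave 2185 higher and 1198 lower, and 1258 and 1398 after centring. The headers of the 24 hr columns carry a label that those of 2 and 6 hr lack, and what it stands for cannot be told apart from time. Low values were read as 2 read sets a library at 2 and 6 hr and 1 at 24 hr, which cannot be told apart from time either.

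**Figure D3:**
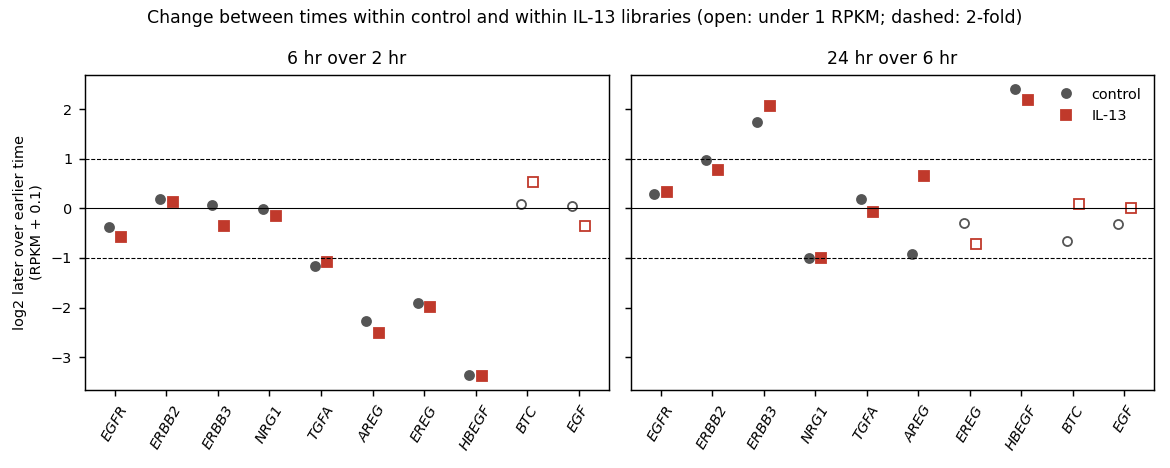
Log2 ratio of the later over the earlier time (RPKM + 0.1) for the 10 genes, 6 hr over 2 hr at left and 24 hr over 6 hr at right, in controls (grey circles) and IL-13 (red squares), 1 pair of libraries per point, with dashed lines at 2-fold and open symbols under 1 RPKM. HBEGF lies at −3.36 and −3.38 at left and above 2 at right, and AREG at right is −0.93 in the controls and 0.66 with IL-13.

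The wider pathway was described with lists of 68 genes: other family members, ligand shedding, adaptors, negative regulators, the kinase cascade and genes known to respond to the pathway. Of the 59 that reached 1 RPKM, 0 passed the size rule for IL-13 at 2 hr and 0 at 6 hr, and 1 did so at 24 hr, beside 1.0%, 1.07% and 2.16% of all genes. The 1 gene was TIMP3, an inhibitor of ADAM17, the main protease that sheds these ligands. At 24 hr TIMP3 had 15.9 RPKM in untreated and 4.19 RPKM in treated cells, a log2 ratio of −1.90. ADAM17 itself had 22.8 and 24.1 RPKM there, so the inhibitor and the protease were not lower together. ERRFI1, a feedback inhibitor of EGFR, had 128, 16.6 and 108 RPKM in the controls and 165, 26.0 and 126 RPKM with IL-13, which places IL-13 above control at each time, by up to 0.64 on the log2 scale, under the 2-fold rule.

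Among the 18 genes known to respond to EGF receptor signalling, 0 passed the size rule for IL-13 at any time, with median log2 ratios of −0.14, −0.20 and −0.35. Of the 18, 12 were lower with IL-13 at all 3 times and 2 higher, and limma called 0 of 18. Of all 11953 genes, 20.1% were lower at all 3 times. DUSP5, a phosphatase that holds ERK in the nucleus, had the largest ratio, from 29.1 RPKM to 16.9 RPKM at 24 hr (log2 −0.78). In the other lists the largest ratios were 0.32 for the exchange factor SOS2 at 6 hr and 0.29 for the PI3 kinase subunit PIK3R1 at 2 hr. Of the other family members, ERBB4, the receptor shared by neuregulins and some EGFR ligands, did not exceed 0.0147 RPKM. NRG4 was the only one to reach 1 RPKM, with 1.32 and 1.41 RPKM at 24 hr.

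Between 2 and 6 hr, 15 of the 59 genes were lower and 0 higher in the controls, and 15 and 0 with IL-13, beside 2.36% and 2.9% of all genes lower. They included 12 of the 18 response genes, the same 12 in both treatments, among them the transcription factors EGR1, FOS, FOSL1, JUN and JUNB and the phosphatases DUSP4, DUSP5 and DUSP6. The negative regulators ERRFI1 and SPRY4 and the inhibitor TIMP3 were the others. The 16 genes of the kinase cascade had 0 calls in either direction. Between 6 and 24 hr, 12 of 61 genes were higher and 5 lower in the controls, beside 16.2% and 6.09% of all genes. With IL-13 they were 11 and 3, beside 14.9% and 5.01%, so the counts lay near the shares of all genes.

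**Figure D4:**
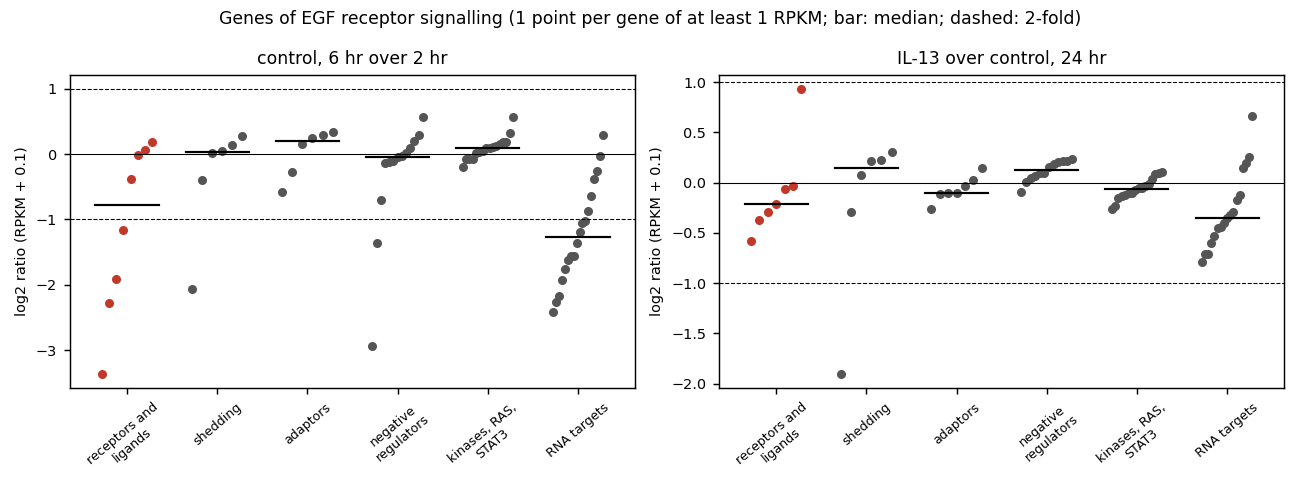
Log2 ratio (RPKM + 0.1) of each gene that reached 1 RPKM, by list, for the controls at 6 hr over 2 hr (left) and IL-13 over control at 24 hr (right), with bars at list medians and dashed lines at 2-fold. At left some receptors and ligands (red), some response genes, TIMP3 in shedding, and ERRFI1 and SPRY4 among negative regulators lie below the line. The response genes have a median of −1.27 there, and at right TIMP3 at −1.90 is the only point past a line.

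Genes with profiles most like each member over the 6 libraries were found among 11824 genes by the root mean square distance of centred log2(RPKM + 0.1) values. For AREG the nearest was F3, tissue factor, at 0.24, and then PDGFB and LIF at 0.38 each. For HBEGF they were ANGPTL4 at 0.22, CDKN1A at 0.27 and DUSP1 at 0.27. Only 1 gene lay within 0.25 of AREG and 1 of HBEGF, whereas 58 did for TGFA, 253 for ERBB3, 778 for NRG1, 1474 for EGFR and 2500 for ERBB2. For EGFR the nearest was TGFB1 (0.06), followed by CKB (0.07) and FAM83G (0.07). For ERBB2 they were FAM45A (0.02), ZNF688 (0.03) and PTPDC1 (0.04), and for ERBB3 KLF11 (0.06), EPHX2 (0.07) and RFX5 (0.08). TGFA was near to TBX3 (0.08) and MYADM (0.12). NRG1 was nearest to POLE (0.03), GNL2 (0.05) and CDC6 (0.06), of which POLE and CDC6 act in DNA replication. These are descriptions over 6 libraries that share times and treatments.

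The marks were described from the authors' own values for peaks assigned to each gene's start. M is the authors' rescaled log2 ratio of the first over the second library of a mark, and a level is the rescaled read number computed from M and their mean log2 level A. Which library was treated is not given in the sources used here, so they are called library 1 and library 2 and no direction of treatment is assigned. Peaks were listed for 7 members in H3K4me3 and for 8 in H3K9Ac and H3K27Ac, and none for EREG or EGF. AREG had no H3K4me3 peak, and its H3K9Ac and H3K27Ac levels did not exceed 17.9 and 11.5. The near-identical copies of AREG in hg19 make its peak levels, and the lack of a peak, uncertain as well.

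The EGFR start (55086725) had the highest level of any peak in each mark. Its H3K27Ac levels were 2778 and 2740, above every other of 15106 peaks and 20.7 times the median of peaks at a level of 30 or more. The H3K9Ac levels were 2504 and 2369, and the H3K4me3 levels 779 and 901. M was 0.02, 0.08 and −0.21, so the libraries of each mark differed little there. Peak levels were not set against input DNA here.

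NRG1 had its main peak at 32405728, with levels of 286 and 298 in H3K4me3, rank 59 of 13207 peaks. Its M was −0.06, 0.07 and −0.14 in H3K4me3, H3K9Ac and H3K27Ac. The RNA tables list NRG1, with 17 RefSeq records, from 32579351, so this peak lies upstream of the start given with its RPKM. TGFA had levels of 385 and 370 in H3K27Ac and M of −0.27, 0.08 and 0.06. ERBB3 had M of 0.37, 0.41 and 0.27 and ERBB2, at 37856254, of −0.30, −0.67 and −0.05. No main peak of these 4 genes reached a 2-fold difference between libraries.

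By the rule of a 2-fold M with a level of at least 30, no member peak was counted in H3K4me3 (0 of 6, beside 10.8% of all peaks) or H3K9Ac (0 of 9, beside 7.41%). In H3K27Ac 2 of 10 were counted, beside 8.77% of all peaks, both higher in library 1, as were 5.06% of all. BTC had levels of 40.4 and 12 (M = 1.75, −log10 p = 4.11 in the authors' deposited table). HBEGF had levels of 51.1 and 10.2 (M = 2.33, −log10 p = 3.98 in the authors' deposited table). The M of HBEGF is uncertain: a look at the reads listed for that peak, which enter no value here, did not show a difference of that size. Neither passed a −log10 p of 5. Beside the HBEGF peak, RNA at 6 hr had a log2 ratio of IL-13 over control of −0.36, and BTC RNA was under 1 RPKM.

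**Figure D5:**
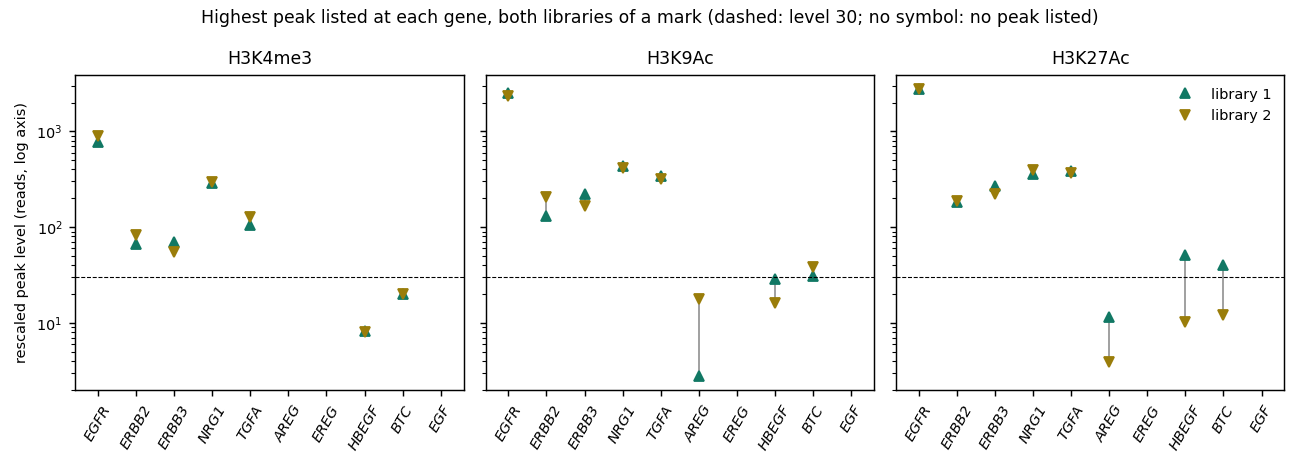
Level in both libraries of a mark for the highest peak listed at each gene (rescaled reads, log axis), with a dashed line at 30 and no symbol where no peak is listed. EGFR is highest in every mark, with H3K27Ac levels of 2778 and 2740, and the symbols of HBEGF and BTC stand apart in H3K27Ac.

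Epithelial markers were present, with 9 or 10 of 10 at 1 RPKM or more in every library, as against 1 of 6 fibroblast and 1 of 6 leukocyte markers. At 24 hr their sum was 4606 RPKM in untreated and 3198 RPKM in treated cells. KRT5 had 2200 and 1323 RPKM there, and only EPCAM and KRT18 were higher with IL-13. The basal keratin KRT14 was lower with IL-13 by the size rule, at 287 and 137 RPKM, as was KRT4 at 6 hr (log2 −1.07). At those times 2.16% and 1.07% of all genes passed in either direction. From 6 to 24 hr KRT13, KRT4 and TP63 were higher by the size rule in both treatments (3 of 10 markers). Of all genes, 16.2% were higher in the controls and 14.9% with IL-13. KRT8 was lower by the rule with IL-13, at −1.04 on the log2 scale, beside 5.01% of all genes. KRT18 had −0.80 in the controls and −0.96 with IL-13, short of the rule. The part of these markers in the members' values was not tested. Brain markers summed to 28.1 RPKM in the control at 2 hr and to 7.37 to 8.62 RPKM in the other libraries, with 7 of 12 at 1 RPKM or more against 1 or 2. Their part in the values that rest on that library, the IL-13 ratios at 2 hr and the controls' difference from 2 to 6 hr, was not tested. HBEGF, AREG, EREG and TGFA were also lower at 6 hr within the IL-13 libraries, where those markers summed to 7.37 and 7.93 RPKM. Depth, read from the steps of low values, was 29.1 to 42.6 megareads at 2 and 6 hr and 13.6 and 14.0 megareads at 24 hr, so that 1 RPKM stood for 13.6 and 14.0 reads per kilobase there.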

How the data were processed

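RNA levels are RPKM values that the authors deposited for 23637 genes, per the file headers, with the authors' own log2 ratio and p-value, raw and adjusted, beside them. For each mark the log2 values M and A and a −log10 p were deposited by the authors, with MAnorm column names in the headers. 6 columns of reads whose library could not be matched to a sample entered no value. The submitters' processing notes name hg19, DESeq for both assays, TopHat2 2.0.9 for RNA, and for ChIP-seq MACS2 2.0.10.20130712 and Bowtie 1.0.0. How reads were counted and pooled is not given in the sources used here.

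Ratios were taken on log2(RPKM + 0.1), which understates changes of low genes. Folds are ratios of RPKM itself. A gene passed the size rule at a 2-fold difference with at least 1 RPKM in the higher library. limma 3.58.1 (R 4.3.3) was fitted over 6 libraries with time and treatment, leaving 2 residual degrees of freedom, with Benjamini-Hochberg adjustment over all genes tested. With 1 library a group, its p-values measure no replicate spread. They rest on how far the IL-13 difference varied between the times, which may be technical. The code was tested on simulated data. Peaks listed at several starts within 20 kb with equal values were counted once. Depth came from low values that lay on fixed steps within 0.5%, as 90.8% to 95.1% did. The input library was not used. Python 3.11.15, NumPy 2.4.6, pandas 2.3.3 and matplotlib 3.10.9 were used.

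Members and gene lists were chosen with earlier results of these data known. Besides the members, the genes named are those of the pathway lists that passed the size rule for IL-13, otherwise the gene of each list with the largest ratio, and the 3 genes most like each member, of which 1 is not reported here. ADAM17, SPRY4, EPCAM, KRT4, KRT5, KRT8, KRT13, KRT14, KRT18, TP63, ERBB4, NRG4 and the response genes named between times were chosen after their values were seen. Alternatives covered the pseudocount, minimum level, fold, centring, limma settings and each time left out. Promoter sequences are RefSeq's, on GRCh38.p14, matched by symbol.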

Additional observations from a re-analysis of the deposited data

Results flagged for a closer look

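AREG moved in opposite directions with IL-13 at different times. The log2 ratio of treated over untreated cells was −0.65 at 6 hr, from 35.7 to 22.8 RPKM, and 0.93 at 24 hr, from 18.8 to 35.9 RPKM. With 1 library in each group the difference between the times was not tested. Neither ratio reached 2-fold, and the near-identical copies of AREG in hg19 make its level uncertain in every library.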

How the results depend on the processing

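Of 379 values of single members under other settings, 359 kept their direction and their side of the threshold, 7 turned direction, 7 newly passed and 6 no longer passed. At 1.5-fold, 1 member was counted for IL-13 at 6 hr and 1 at 24 hr (AREG both times, beside 3.02% and 6.4% of genes). From 6 to 24 hr 5 were counted in the controls and 5 with IL-13. The share of all genes was taken there only at 2-fold (22.3% and 19.9%). In H3K9Ac 2 were counted at 1.5-fold (ERBB2 and TGFA, beside 21.2% of peaks). Without a minimum RPKM, 1 was counted for IL-13 at 24 hr (BTC), where the share of all genes was not taken. With all genes above 0 RPKM, limma passed 1 member from 2 to 6 hr (HBEGF), beside 9 higher and 139 lower of 19306 genes. At a level of 10, 1 member was counted in H3K4me3 (ERBB3), 2 in H3K9Ac (AREG and HBEGF) and 3 in H3K27Ac (AREG beside BTC and HBEGF), where 16.2%, 11.8% and 13.9% of all peaks were. In H3K27Ac 0 were counted at a −log10 p of at least 5, beside 2.55% of peaks.

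Centring on the median turned ERBB3 from 2 to 6 hr in the controls (−0.037), TGFA from 6 to 24 hr in the controls (−0.039) and in limma (−0.20), and NRG1 with IL-13 in limma (−0.023). It also brought AREG from 6 to 24 hr in the controls to −1.15, past 2-fold. Without the 2 hr pair the shared IL-13 difference was −0.038 for NRG1 and 0.14 for AREG, and without the 6 hr pair 0.26 for AREG and −0.015 for ERBB3. Without the 24 hr pair it was −0.53 for AREG. None of these limma values had an adjusted p under 0.05. The cause was not tested. Differences between times could be refitted only without the pair outside the contrast. The limma fit matches control and IL-13 libraries by time. No paired analysis by replicate number could be made because the labels give none. At 24 hr, with 13.6 and 14.0 megareads and no replicate, values under 1 RPKM rest on few reads.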

Other observations

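Peaks of several, not all, genes around EGFR on chromosome 7 also had high levels. Within 1 Mb of the EGFR start, the highest H3K27Ac level was 2312 at LANCL2, 1384 at VOPP1 and 1136 at SEC61G, each above at least 99.9% of peaks of that mark. In H3K9Ac the next peak after EGFR among all 14242 was that of LANCL2 (2091), and in H3K4me3 that of PSPH (680). VSTM2A, on the other side of SEC61G from EGFR, had an H3K27Ac level of 42.2. Also low within 1 Mb were the H3K27Ac peaks of FKBP9L (45.1 and 66.7), LOC285878 (61.8) and LOC100507500 (88.3 and 118). Those of GBAS (554) and MRPS17 (517), within 1 Mb as well, were above 97.9% and 97.2% of peaks of that mark. RNA of SEC61G, a subunit of the protein translocation channel, was 470 to 531 RPKM over the 6 libraries, and that of LANCL2 was 15.5 to 41.5 RPKM. DNA copy number was not measured here.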
